A study of Mus musculus with 10 samples.

Results

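The Notch genes described here are 3 receptors (Notch1, Notch2 and Notch3), 3 ligands (Dll1, Dll3 and Jag1) and 4 transcription factors of the Hes and Hey family (Hes1, Hes5, Hes6 and Hey1). They were chosen by name, as 10 of the 21101 genes in the table, and all 10 were measured at 1 TPM (transcript abundance scaled for gene length and library total) or more in every library. RNA was sequenced from mouse neural stem cells that were null for p53 and transduced with mutant IDH1(R132H), so controls and Atrx-deleted cells shared both of these changes. Control NSC#1 and Control NSC#2 were the 2 control lines, and mA16d#4, mA19d#4 and mA19d#7 the 3 Atrx-deleted lines. Each line gave 1 library from neural proliferation medium (20 ng/ml of EGF plus bFGF), and 1 after 8 days in neural basal medium with B27 and no growth factor. The 4 groups were therefore control lines in proliferation medium (n = 2) and in differentiation medium (n = 2), and Atrx-deleted lines in proliferation medium (n = 3) and in differentiation medium (n = 3). The series title concerns Atrx in neuronal differentiation. The labels do not say whether lines came from separate animals, whether each is a clone or what part of Atrx was removed. The p-values measure only the spread between libraries of these lines within the groups.

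A Notch receptor is cleaved after it meets a ligand on a neighbouring cell, first by an ADAM protease and then by gamma-secretase, and its intracellular part enters the nucleus and turns the DNA-binding protein RBPJ from a repressor into an activator. Hes1, Hes5 and Hey1 are well-known targets and encode repressors that hold back proneural factors, and with them neuronal differentiation. Proneural factors in turn raise Dll1 in the signalling cell, a loop known as lateral inhibition, by which neural stem cells and differentiating cells are kept side by side.

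Before the members are described, 1 library has to be set apart. The differentiation library labelled mA19d#7 was, over all genes, most like the mA16d#4 library from proliferation medium (Spearman rho 0.957 across genes), and the mA19d#4 differentiation library most like the mA19d#7 proliferation library (rho 0.960). The mA19d#7 differentiation library held 1411 TPM of Gfap, an astrocyte filament gene, against 1.57 to 79.5 TPM in the other 9 libraries. Results that rest on it are given with and without it, with an exception. Shares of all genes at an unadjusted p, by overlap or by direction are given with it only. The limma fit used here pools the spread of all 4 groups, so this library also enters the SE of comparisons that do not hold it. Atrx itself was at 127 to 163 TPM in the 4 control libraries and at 42.8 to 74.0 TPM in the 6 libraries labelled Atrx-deleted, lower by a log2 difference of -1.34 (adjusted p = 0.0390) in proliferation medium and -1.28 (adjusted p = 0.0204) in differentiation medium. The call on Atrx was lost in 16 and 5 of 27 alternative settings respectively, and its direction was kept, with log2 values from -1.47 to -1.09 where the loss of 1 library ended the call in proliferation medium. Adjusted p-values here are Benjamini-Hochberg values from limma over 15660 tested genes, with 0.05 as threshold. Sample codes in the labels begin with one number for control and another for Atrx-deleted samples, and this number and genotype cannot be told apart. Of 8 markers of neural stem cells and progenitors, 7 reached 1 TPM in every library and Prom1 in all but 1, which matches the labelled cell type. Their sums ran from 9939 to 13410 TPM per library, with Fabp7 and Vim as the largest parts. In controls Fabp7 had means of 5423 TPM in proliferation and 11020 TPM in differentiation medium. Vim (3761 and 1388 TPM) and Nes (587 and 264 TPM) had lower means in differentiation medium, as did Sox2 and Prom1 slightly, while Pax6, Msi1 and Sox9 had higher ones. Of 6 microglial markers Cx3cr1 and Itgam, and of 6 endothelial and mural markers Cdh5, Cldn5, Pdgfrb and Rgs5, were below 1 TPM in all 10 libraries. The other microglial markers reached at most 11.2 TPM for P2ry12, 7.15 TPM for Aif1, 3.20 TPM for Ptprc and 1.16 TPM for Csf1r, and the endothelial markers Kdr and Pecam1 at most 3.41 and 2.64 TPM.

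Hes5 was the member with the widest range of levels, and its promoter is shown because it was also the only member promoter window that held the core of the RBPJ motif. The sequence is from RefSeq (GRCm38.p6) and spans the 250 bases before the start of Hes5 on the plus strand, chr4:154960673-154960922, with the letters TGGGAA, or their reverse complement TTCCCA, in capitals.
Hes5: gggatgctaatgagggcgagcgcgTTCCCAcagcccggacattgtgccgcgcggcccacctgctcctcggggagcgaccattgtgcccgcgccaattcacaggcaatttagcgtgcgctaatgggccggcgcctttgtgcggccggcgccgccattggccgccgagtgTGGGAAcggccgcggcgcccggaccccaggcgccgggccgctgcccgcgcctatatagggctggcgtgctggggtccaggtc
The matches begin at positions -226 and -82 relative to the start, the first on the minus strand and the second on the plus strand. Of 32851 mouse promoter windows of this length, 21.6% held the motif on either strand. Promoter entries were found for 8 of the 10 members, which left out Hes1 and Hey1, and Dll1 and Hes6 had 2 starts each. A proneural E-box, CAGNTG on either strand, occurred in windows of Dll1 (1 of its 2), Dll3, Jag1, Hes5 and Hes6, and in 44.8% of all windows. An N-box, CACNAG on either strand, the site known for Hes repressors, occurred in windows of Notch1, Notch2, Notch3 and Hes6 (1 of its 2), and in 36.7% of all windows. The bases after the start of that Dll1 window and of the Notch3 window were not found in a GENCODE transcript. The Notch1 start lay 12841 bases from the GENCODE gene start. No 2 matches overlapped, and a match describes letters only.

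On the TPM scale, Hes6 headed the order of mean levels in 3 groups, with means of 320.1 TPM in control lines in proliferation medium, 373 TPM in control lines in differentiation medium and 335 TPM in Atrx-deleted lines in differentiation medium. Hes5 headed it in Atrx-deleted lines in proliferation medium with 649 TPM, although its libraries overlapped with those of Hes6. Notch1 was the most abundant receptor and Dll1 the most abundant ligand in every library. In the controls in proliferation medium Hes5 overlapped with Hes6 and with Notch1, as did Hey1 with Notch3 and Notch2 with Hes1, whereas Jag1 and Dll3, at means of 26.5 and 21.0 TPM, each lay apart from the gene above. Levels ranged 18.2-fold over the 10 libraries for Hes5, 9.81-fold for Dll3, 4.67-fold for Notch3 and 1.69-fold for Hes6. Without the mA19d#7 differentiation library these ranges were 8.72-fold, 3.11-fold, 2.23-fold and 1.69-fold.

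**Figure D1:**
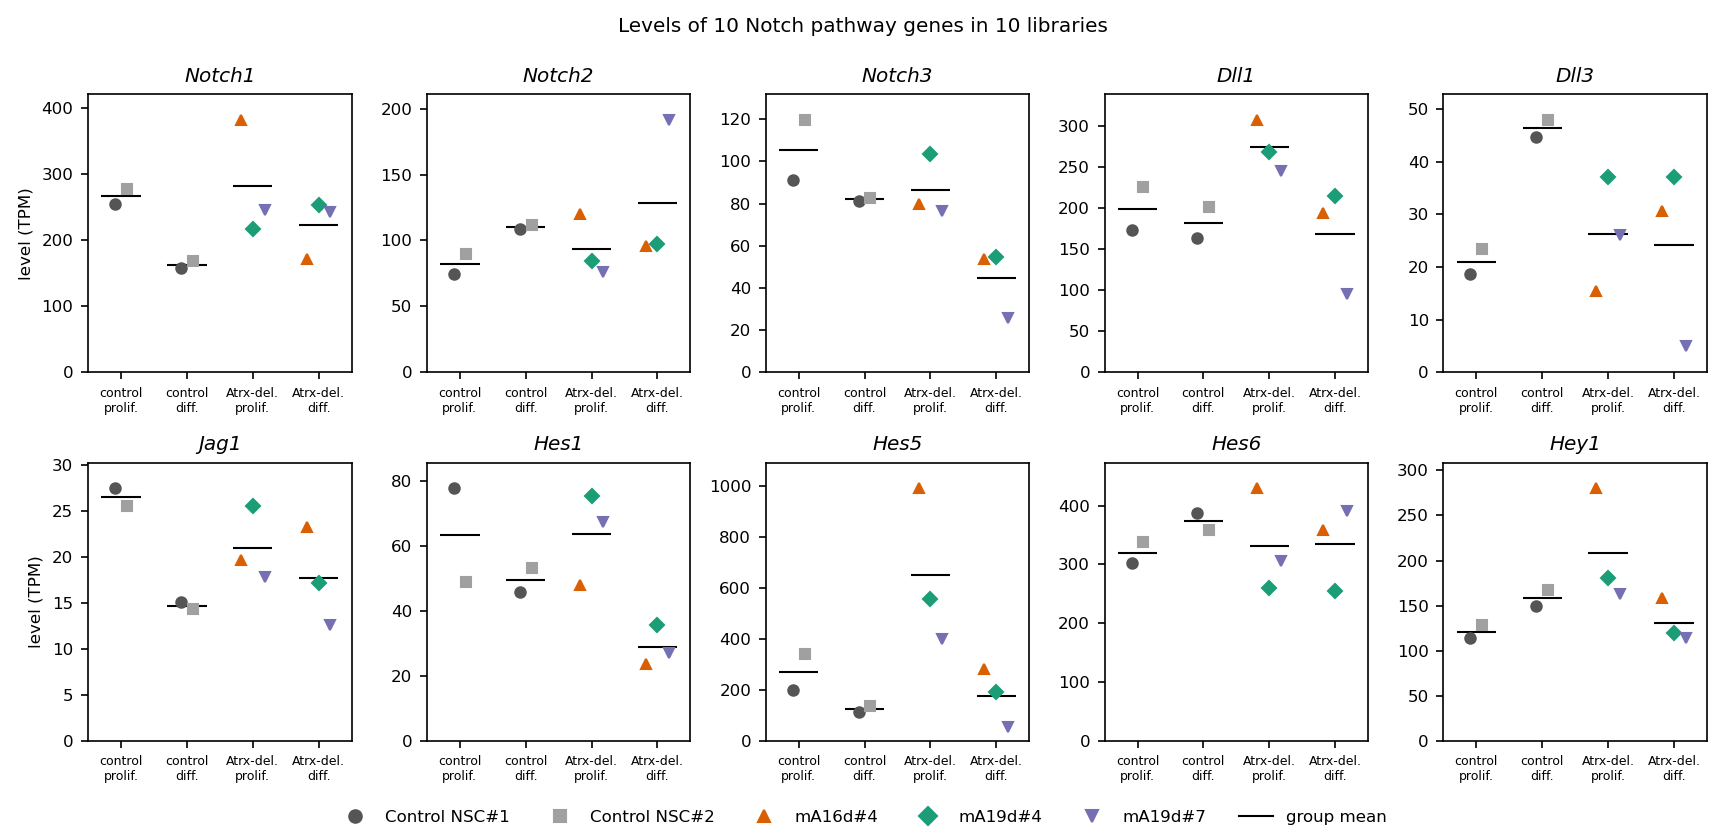
Levels in TPM (vertical axes, each from 0) of the 10 members, 1 panel per gene, by group; each point is 1 library, symbols give the cell line and horizontal bars the group mean. The mA19d#7 differentiation library holds the lowest value of Notch3, Dll1, Dll3, Jag1 and Hes5, and the mA16d#4 proliferation library the highest of Notch1, Dll1, Hes5, Hes6 and Hey1.

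None of the 10 members passed the test in any of the 5 comparisons, and most intervals of their differences are wide. Between Atrx-deleted and control lines 0 of 10 members passed in proliferation medium, where limma called 0.46% of all tested genes, and 0 of 10 in differentiation medium, where it called 2.89%. Between media 0 of 10 passed in control lines (4.51% of all genes called) and 0 of 10 in Atrx-deleted lines (0.083% called), and 0 of 10 passed for the difference of the medium responses between genotypes (0.00639% called). At an unadjusted p below 0.05 the members numbered 1 (Hey1, against 13.7% of all genes), 2 (Notch3 and Hes1, against 20.2%), 2 (Notch1 and Jag1, against 19.9%), 5 (Notch3, Dll1, Hes1, Hes5 and Hey1, against 14.8%) and 1 (Hey1, against 7.02%) in the same order. The 5 members in the Atrx-deleted lines were all lower in differentiation medium, which held for 7.33% of all genes. With the cell line as a block, 6 in place of 13 genes were called between media in Atrx-deleted lines and 0 in place of 1 for the difference of the responses, still with 0 of the 10 members. Without the mA19d#7 differentiation library the calls over all genes went from 72 to 249, 452 to 935, 706 to 1447, 13 to 348 and 1 to 3 in the order above, again with 0 of the 10 members in each. Comparisons share libraries, so their values stand side by side and are not independent.

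**Figure D2:**
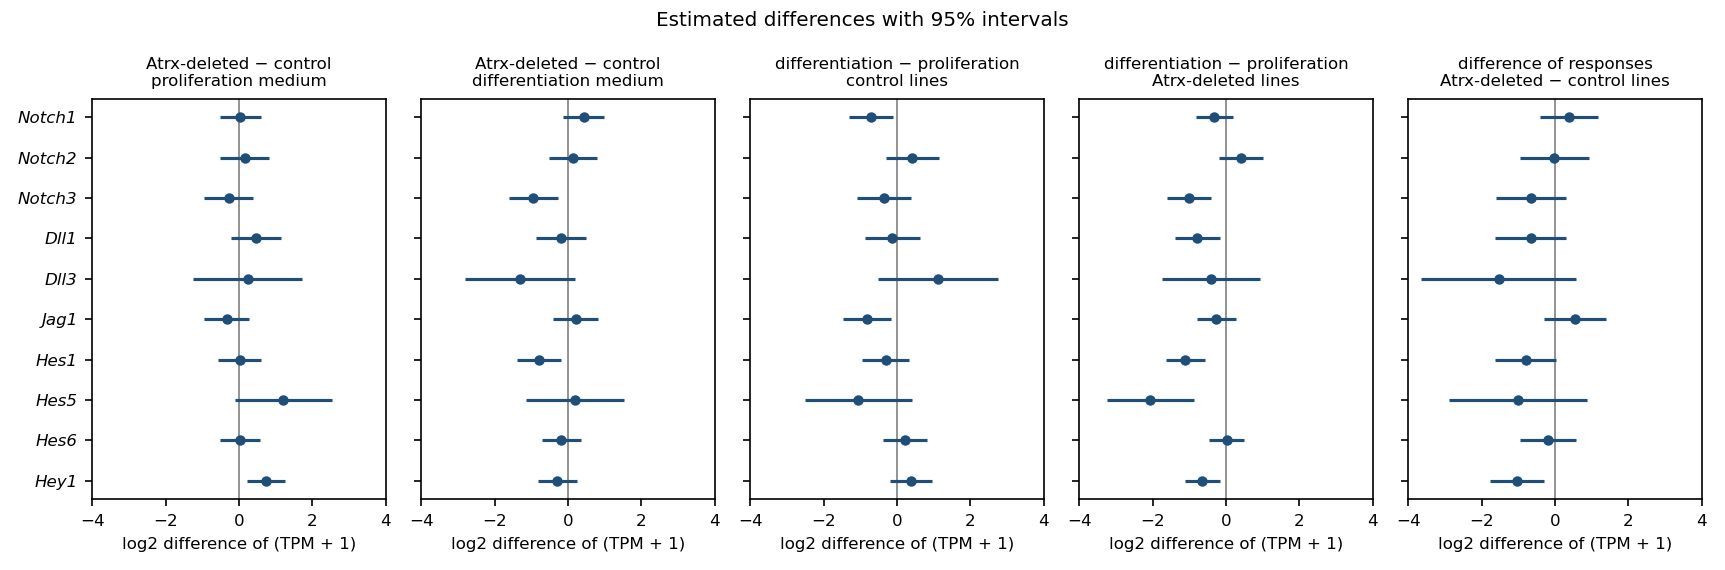
Estimated log2 differences of (TPM + 1) with 95% intervals (horizontal axes) for the 10 members, 1 panel per comparison. Most intervals include 0; in Atrx-deleted lines those of Notch3, Dll1, Hes1, Hes5 and Hey1 lie below 0 for differentiation against proliferation medium, before any adjustment for the number of genes tested.

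Among the receptors, Notch1, the main receptor of neural stem cells, was at 255 and 277 TPM in Control NSC#1 and Control NSC#2 in proliferation medium and at 158 and 168 TPM in differentiation medium. The control libraries of the media did not overlap. In the Atrx-deleted lines mA16d#4, mA19d#4 and mA19d#7, Notch1 was at 382, 216 and 245 TPM in proliferation medium and at 171, 253 and 243 TPM in differentiation medium. These overlapped widely: mA16d#4 was at 44.8% of its proliferation level, and mA19d#4 and mA19d#7 at 117% and 99.2% of theirs. In differentiation medium all 3 Atrx-deleted libraries lay above both controls. Between media, Notch1 in controls had a log2 difference of -0.71 (SE 0.274, adjusted p = 0.180). It passed with the compared groups fitted alone (adjusted p = 0.0202), with a weight per group (0.0269) and without line mA16d#4 (0.0445). The difference between genotypes in differentiation medium was 0.43 (SE 0.250, adjusted p = 0.373).

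Notch3, which neural progenitors share with vascular mural cells, was lower in differentiation medium in every line. It was at 90.9 and 119.8 TPM in the controls in proliferation medium and at 81.3 and 82.8 TPM in differentiation medium. Across Atrx-deleted lines it was at 79.8, 103 and 76.6 TPM in proliferation medium and at 53.8, 54.7 and 25.6 TPM in differentiation medium. The Atrx-deleted differentiation libraries lay below all 7 others. Between media, the Atrx-deleted lines had a log2 difference of -1.003 (SE 0.271, adjusted p = 0.157), and -0.65 (adjusted p = 0.0823) without the mA19d#7 differentiation library. In differentiation medium the log2 difference between genotypes was -0.94 (SE 0.303, adjusted p = 0.122), and -0.59 (adjusted p = 0.0967) without that library. The mural markers Pdgfrb and Rgs5 were below 1 TPM throughout.

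Notch2, a receptor tied to quiescence of neural stem cells, was at 74.9 and 90.0 TPM in controls in proliferation medium and at 109.0 and 111.5 TPM in differentiation medium, without overlap. In the Atrx-deleted lines it was at 119.8, 84.0 and 76.2 TPM in proliferation medium and at 95.9, 96.9 and 192 TPM in differentiation medium, with overlap. On the log2 scale the difference between media was 0.42 (SE 0.328, adjusted p = 0.541) in controls and 0.40 (SE 0.268, adjusted p = 0.528) in Atrx-deleted lines. The latter rested on the mA19d#7 differentiation library, since it was 0.07 (adjusted p = 0.863) without it. Notch1 stood at 3.08 to 3.41 times the TPM of Notch2 in the controls in proliferation medium and at 1.44 to 1.5 times in differentiation medium. In Atrx-deleted lines the ratio was 2.57 to 3.22 and 1.27 to 2.61.

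Among the ligands, Dll1, the activating ligand of lateral inhibition, was at 173 and 225 TPM in the controls in proliferation medium and at 163 and 201 TPM in differentiation medium. Across Atrx-deleted lines it was at 308, 269 and 245 TPM in proliferation medium, above both controls, and at 194, 215 and 95.4 TPM in differentiation medium. All 3 Atrx-deleted lines were lower in differentiation medium, at 62.9%, 79.9% and 38.9% of their proliferation level, against 94.0% and 89.3% in the control lines. Between media, Dll1 in Atrx-deleted lines had a log2 difference of -0.78 (SE 0.275, adjusted p = 0.239), and -0.42 (adjusted p = 0.198) without the mA19d#7 differentiation library. For the genotypes the log2 difference was 0.46 (SE 0.308, adjusted p = 0.551) in proliferation medium and -0.19 (SE 0.308, adjusted p = 0.771) in differentiation medium. Without the mA19d#7 differentiation library the former had an SE of 0.1685 (adjusted p = 0.192). The latter was 0.17 without that library, so its direction rests on that library.

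Dll3, a divergent ligand that does not activate Notch on neighbouring cells and acts within the cell that makes it, went apart between the Atrx-deleted lines. It was at 18.6 and 23.3 TPM in the controls in proliferation medium and at 44.8 and 48.0 TPM in differentiation medium. In the Atrx-deleted lines it was at 15.4, 37.2 and 26.0 TPM in proliferation medium and at 30.7, 37.0 and 4.89 TPM in differentiation medium. Of these lines mA16d#4 stood at 199% of its proliferation level, mA19d#4 at 99.5% and mA19d#7 at 18.8%, against 241% and 206% in the control lines. In differentiation medium each Atrx-deleted library lay below both controls, with a log2 difference of -1.30 (SE 0.672, adjusted p = 0.309), and -0.45 (SE 0.341, adjusted p = 0.462) without the mA19d#7 library. Between media, Dll3 in controls had a log2 difference of 1.12 (SE 0.736, adjusted p = 0.456). Without the mA19d#7 differentiation library the SE was 0.341 (adjusted p = 0.0761). This difference passed with the compared groups fitted alone (adjusted p = 0.0262). It also passed with the line as a block and mA19d#7 left out (adjusted p = 0.0368), a setting chosen after seeing the data.

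Jag1, a ligand of the Jagged class, was the lowest member in 3 of the 4 groups. It was at 27.46 and 25.53 TPM in the controls in proliferation medium and at 15.03 and 14.34 TPM in differentiation medium, without overlap. Across Atrx-deleted lines it was at 19.6, 25.51 and 17.83 TPM in proliferation medium and at 23.2, 17.1 and 12.6 TPM in differentiation medium. The Atrx-deleted libraries of the media overlapped, and in proliferation medium they lay below both controls, in mA19d#4 only just. For Jag1 the log2 difference between media was -0.81 (SE 0.297, adjusted p = 0.157) in controls and -0.26 (SE 0.243, adjusted p = 0.663) in Atrx-deleted lines. In controls it passed with a weight per group (adjusted p = 0.0195) and with the groups fitted alone (0.0461).

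Among the targets, Hes5, the Hes gene most closely tied to Notch activity in neural stem cells, varied most. It was at 198 and 339 TPM in the controls in proliferation medium and at 992, 555 and 399 TPM in mA16d#4, mA19d#4 and mA19d#7. The 3 Atrx-deleted libraries lay above both controls, with a log2 difference of 1.22 (SE 0.601, 95% interval -0.12 to 2.55, adjusted p = 0.406). Without the mA19d#7 differentiation library, which is in neither of these groups, the SE was 0.369 and the adjusted p 0.130. In differentiation medium it was at 114 and 137 TPM in the controls and at 282, 192 and 54.5 TPM in the Atrx-deleted lines. The groups overlapped there through the mA19d#7 library, with a log2 difference of 0.20 (SE 0.601, adjusted p = 0.887), and 0.90 (SE 0.404, adjusted p = 0.211) without that library.

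Hes5 was lower in differentiation medium in all 5 lines, at 57.4% and 40.4% of the proliferation level in the control lines and at 28.4%, 34.7% and 13.7% in mA16d#4, mA19d#4 and mA19d#7. The libraries of the media overlapped in neither genotype. The log2 difference between media was -1.05 (SE 0.658, adjusted p = 0.430) in control lines and -2.06 (SE 0.537, 95% interval -3.25 to -0.87, adjusted p = 0.145) in Atrx-deleted lines. Without the mA19d#7 differentiation library the latter was -1.37 (SE 0.369, adjusted p = 0.0863), and the former had an SE of 0.404 (adjusted p = 0.146). With the cell line as a block and both mA19d#7 libraries left out, a setting chosen after seeing the data, Hes5 passed in Atrx-deleted lines (log2 -1.67, adjusted p = 0.0262) and in control lines (log2 -1.05, adjusted p = 0.0157). With the block and all lines it was at an adjusted p of 0.0721 and 0.124. In these bulk libraries, fewer cells of a type and less RNA per cell cannot be told apart.

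Hes1, a Hes repressor that other signals besides Notch also drive, was at 77.9 and 48.7 TPM in the controls in proliferation medium and at 46.0 and 53.3 TPM in differentiation medium. The 2 control lines differed in direction, at 59.0% and 109% of their proliferation level. In the Atrx-deleted lines Hes1 was at 47.9, 75.3 and 67.5 TPM in proliferation medium and at 23.7, 35.7 and 26.9 TPM in differentiation medium, the lowest 3 values of all 10 libraries. Each Atrx-deleted line stood at 39.9% to 49.4% of its proliferation level. Between media, Hes1 in these lines had a log2 difference of -1.11 (SE 0.239, 95% interval -1.64 to -0.58), with the lowest adjusted p of any member in any comparison (0.0997). It was little moved without the mA19d#7 differentiation library, at -1.08 (adjusted p = 0.0742). In differentiation medium the log2 difference between genotypes was -0.78 (SE 0.267, adjusted p = 0.141), and -0.75 (adjusted p = 0.158) without that library.

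The ratio of Hes5 to Hes1 in TPM was 2.55 and 6.95 in the controls in proliferation medium and 2.48 and 2.57 in differentiation medium. Across Atrx-deleted lines it was 20.7, 7.37 and 5.91 in proliferation medium and 11.9, 5.39 and 2.03 in differentiation medium. It was thus highest in both mA16d#4 libraries, and the groups overlapped.

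Hey1, a related repressor, was the only member that was higher in every control line and lower in every Atrx-deleted line in differentiation medium, a pattern that 4.36% of all tested genes had. It was at 113.5 and 127.9 TPM in the controls in proliferation medium and at 150 and 167 TPM in differentiation medium. In the Atrx-deleted lines it was at 281, 181 and 163 TPM in proliferation medium, above both controls, and at 158, 120 and 114 TPM in differentiation medium. The control lines therefore stood at 132% and 130% of their proliferation level, and the Atrx-deleted lines at 56.3%, 66.2% and 70.0%. The log2 difference between genotypes in proliferation medium was 0.74 (SE 0.236, adjusted p = 0.214). The log2 difference between media was 0.39 (SE 0.259, adjusted p = 0.463) in controls and -0.64 (SE 0.211, adjusted p = 0.215) in Atrx-deleted lines. The test of the difference of these responses gave a log2 value of -1.03 (SE 0.334, adjusted p = 0.533), and -0.94 (adjusted p = 0.345) without the mA19d#7 differentiation library.

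Hes6, a Hes family member that proneural factors raise and that opposes Hes1, was the least variable member over all libraries. Without the differentiation library set apart above, Notch2 had the smallest range, at 1.6-fold against 1.69-fold for Hes6. Hes6 was at 302 and 338 TPM in the controls in proliferation medium and at 388 and 358 TPM in differentiation medium. Across Atrx-deleted lines it was at 430, 260 and 306 TPM in proliferation medium and at 358, 255 and 391 TPM in differentiation medium. The Atrx-deleted libraries overlapped with the controls in both media. The log2 difference between genotypes was 0.02 (95% interval -0.52 to 0.56) in proliferation medium and -0.18 (95% interval -0.72 to 0.36) in differentiation medium.

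Read across members, the libraries of the genotypes did not overlap for 4 of 10 members in proliferation medium (Dll1, Hes5 and Hey1 higher and Jag1 lower), against 38% of all tested genes, and for 4 of 10 in differentiation medium (Notch1 higher, Notch3, Dll3 and Hes1 lower), against 36.3%. Both shares are near the background. The libraries of the media did not overlap for 8 of 10 members in control lines, against 61.3% of all genes, where each group holds only 2 libraries. Notch2, Dll3, Hes6 and Hey1 were higher there in differentiation medium, and Notch1, Notch3, Jag1 and Hes5 lower. In Atrx-deleted lines they did not overlap for 5 of 10 members, Notch3, Dll1, Hes1, Hes5 and Hey1, against 16.5% of all genes. All 5 were lower in differentiation medium, against 7.85% of all genes.

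The median log2 difference between media over the 10 members was -0.22 in the controls and -0.53 in the Atrx-deleted lines, against -0.01 and 0.01 over all tested genes. Between genotypes it was 0.10 in proliferation medium and -0.19 in differentiation medium, against -0.02 and 0.02. For the difference of the medium responses it was -0.66, against 0.03. Without the mA19d#7 differentiation library the members' median was -0.32 for the difference of the responses and -0.40 between media in Atrx-deleted lines. Within-line differences of the Atrx-deleted lines lay below those of both control lines for 6 members, Notch3, Dll1, Dll3, Hes1, Hes5 and Hey1, which held for 11.6% of all genes. They lay above for Jag1, and 7 members in either direction compare with 25.5% of all genes. Both shares of all genes include the mA19d#7 differentiation library and are not given without it. None of the 6 passed the test of the difference, and their adjusted p-values ran from 0.533 to 0.859.

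**Figure D3:**
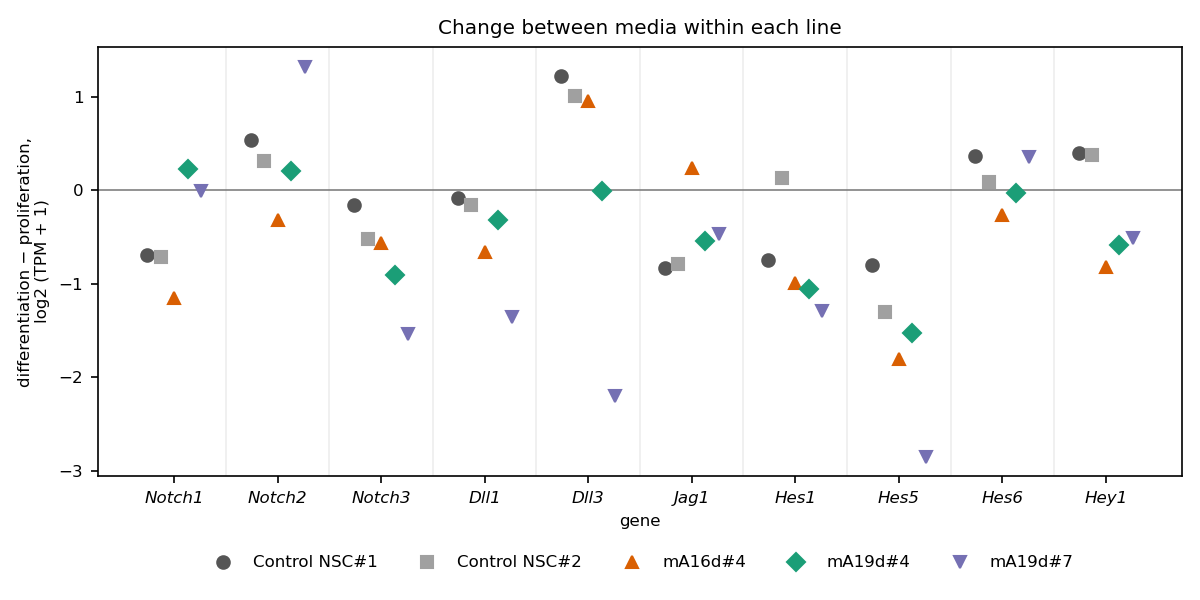
Differentiation minus proliferation level on the log2 (TPM + 1) scale (vertical axis) for each member and each of the 5 lines. For Notch3, Dll1, Dll3, Hes1, Hes5 and Hey1 the 3 Atrx-deleted lines lie below both control lines, and for Hey1 they lie on the other side of 0.

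Marker sums of cell state also lay apart between media in the controls. The summed level of 6 cycling-cell markers, all at 1 TPM or more in every library, was 528 to 853 TPM in controls in proliferation medium and 84.8 to 93.6 TPM in differentiation medium. In Atrx-deleted lines the sum was 562 to 866 TPM and 242 to 568 TPM. The sum of 8 astrocyte markers, also all at 1 TPM or more, was 1360 to 1928 TPM in controls in proliferation medium and 8173 to 9109 TPM in differentiation medium, against 1788 to 3226 TPM and 2532 to 4538 TPM in Atrx-deleted lines. In the controls Apoe, a lipid carrier that made up most of the difference in that sum, had means of 556 and 6032 TPM, and Slc1a3, Slc1a2 and Gja1 were also at higher means in differentiation medium. Means were lower there for Gfap (5.90 and 3.11 TPM), S100b (312 and 192 TPM) and Aldh1l1 (16.8 and 9.66 TPM). In Atrx-deleted lines S100b (121 and 113 TPM) and Aldh1l1 (25.3 and 12.9 TPM) had lower means in differentiation medium. The other astrocyte markers had higher ones, Apoe only slightly (1067 and 1128 TPM). The sum of 8 neuronal markers, of which Stmn2 was below 1 TPM throughout, was 676 to 696 and 814 to 843 TPM in controls. In Atrx-deleted lines it was 743 to 933 and 428 to 1211 TPM, with the lowest value in the mA19d#7 differentiation library. Its largest parts were Map2 and Tubb3, at means of 564 and 106 TPM in controls in proliferation medium. In controls Syt1 had a lower mean in differentiation medium and the other neuronal markers higher ones. In every Atrx-deleted library 5 of the 8 reached 1 TPM, with Rbfox3 and Snap25 below it in some. Of 5 ependymal and choroid plexus markers Ttr and Kl were below 1 TPM throughout. The sum reached 160.3 TPM in the mA19d#7 differentiation library, of which Foxj1 alone made up 157.5 TPM. In the Atrx-deleted differentiation libraries Rsph1 reached at most 2.81 TPM and Ccdc153 at most 0.0209 TPM. The sum of 8 oligodendrocyte lineage markers was 3828 to 4479 TPM over the control libraries and 1879 to 4844 TPM over the Atrx-deleted ones. Its largest parts were Olig1 and Olig2, at means of 2685 and 1371 TPM in controls in proliferation medium. Sox10, Mbp and Mog reached at most 7.11, 2.10 and 3.98 TPM and were below 1 TPM in some libraries. The part of these markers in the Notch values was not tested.

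Beyond the 10 members, 64 further pathway genes were listed and 56 were tested. In proliferation medium 0 of 56 passed between genotypes by limma, with 10 (17.9%, against 13.7% of all tested genes) at an unadjusted p below 0.05. In differentiation medium 2 were higher and 1 lower in Atrx-deleted lines (5.36% together, against 2.89% of all tested genes), and 11 (19.6%, against 20.2%) had an unadjusted p below 0.05. Between media 3 fell in differentiation medium in the controls (5.36%, against 4.51% of all tested genes called in either direction) and 1 did so in Atrx-deleted lines (1.79%, against 0.083%). In each genotype 9 had an unadjusted p below 0.05, which is 16.1% against 19.9% of all genes in the controls and 14.8% in Atrx-deleted lines. For the difference of the responses 0 passed by limma, with 4 (7.14%, against 7.02%) at an unadjusted p below 0.05. The shares at an unadjusted p below 0.05 were thus near those of all genes. The median log2 difference of the 56 lay between -0.12 and 0.03 over the 5 comparisons.

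Neurl1b, an E3 ubiquitin ligase that acts on Notch ligands, was at 24.0 and 15.1 TPM in the controls in proliferation medium and at 1.78 and 1.32 TPM in differentiation medium. In Atrx-deleted lines it was at 19.9, 17.7 and 16.2 TPM in proliferation medium and at 14.0, 13.9 and 15.2 TPM in differentiation medium. It fell with the change of medium in control lines (log2 -2.98, adjusted p = 0.00236), and was higher in Atrx-deleted than in control lines in differentiation medium (log2 2.60, adjusted p = 0.00292). The difference of the responses was 2.69 (adjusted p = 0.0928). The first call was lost in 3 of 29 alternative settings, among them without the Control NSC#1 proliferation library (log2 -2.67). The second passed in 24 of 27 alternative settings.

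Tle2, a Groucho corepressor that Hes proteins recruit, was at 79.0 and 74.9 TPM in controls in proliferation medium and at 9.49 and 11.0 TPM in differentiation medium. In Atrx-deleted lines it was at 77.9, 78.4 and 68.2 TPM in proliferation medium and at 22.4, 29.7 and 34.2 TPM in differentiation medium. It fell in differentiation medium in the controls (log2 -2.80, adjusted p = 0.000734) and the Atrx-deleted lines (log2 -1.37, adjusted p = 0.0349), and was higher in Atrx-deleted than in control lines in differentiation medium (log2 1.39, adjusted p = 0.0104). The call in Atrx-deleted lines was lost with the line as a block (adjusted p = 0.0732) and without any 1 of 8 libraries (adjusted p 0.0599 to 0.201), all but those of mA19d#4 and mA19d#7 in differentiation medium. The call between genotypes was lost without either control differentiation library (adjusted p 0.0744 and 0.153). Over the alternative settings the Tle2 call was lost in 2 of 29 in controls, 17 of 29 in Atrx-deleted lines and 5 of 27 between genotypes in differentiation medium. The difference of the responses was 1.43 (adjusted p = 0.288).

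Neurl1a, the paralogue of Neurl1b, fell in control lines, from 21.1 and 14.3 TPM to 3.11 and 3.15 TPM (log2 -2.15, adjusted p = 0.0241). In Atrx-deleted lines it was at 10.5, 18.9 and 21.8 TPM and at 7.09, 8.32 and 3.65 TPM. The call was lost in 8 of 29 alternative settings. Among these were the line as a block (adjusted p = 0.0536) and the loss of any 1 of the 4 control libraries (log2 -2.42 to -1.89). Psenen, a subunit of gamma-secretase, was at 95.1 and 82.4 TPM in controls in differentiation medium and at 50.1, 51.5 and 54.8 TPM in Atrx-deleted lines, lower by a log2 difference of -0.75 (adjusted p = 0.0338). In proliferation medium Psenen was at 86.3 and 84.6 TPM in controls and at 52.9, 65.4 and 56.1 TPM in Atrx-deleted lines. Its call was lost in 12 of 27 alternative settings. Among these was the loss of any 1 of 6 libraries (log2 -0.86 to -0.65), namely the 4 control libraries and the differentiation libraries of mA16d#4 and mA19d#4.

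**Figure D4:**
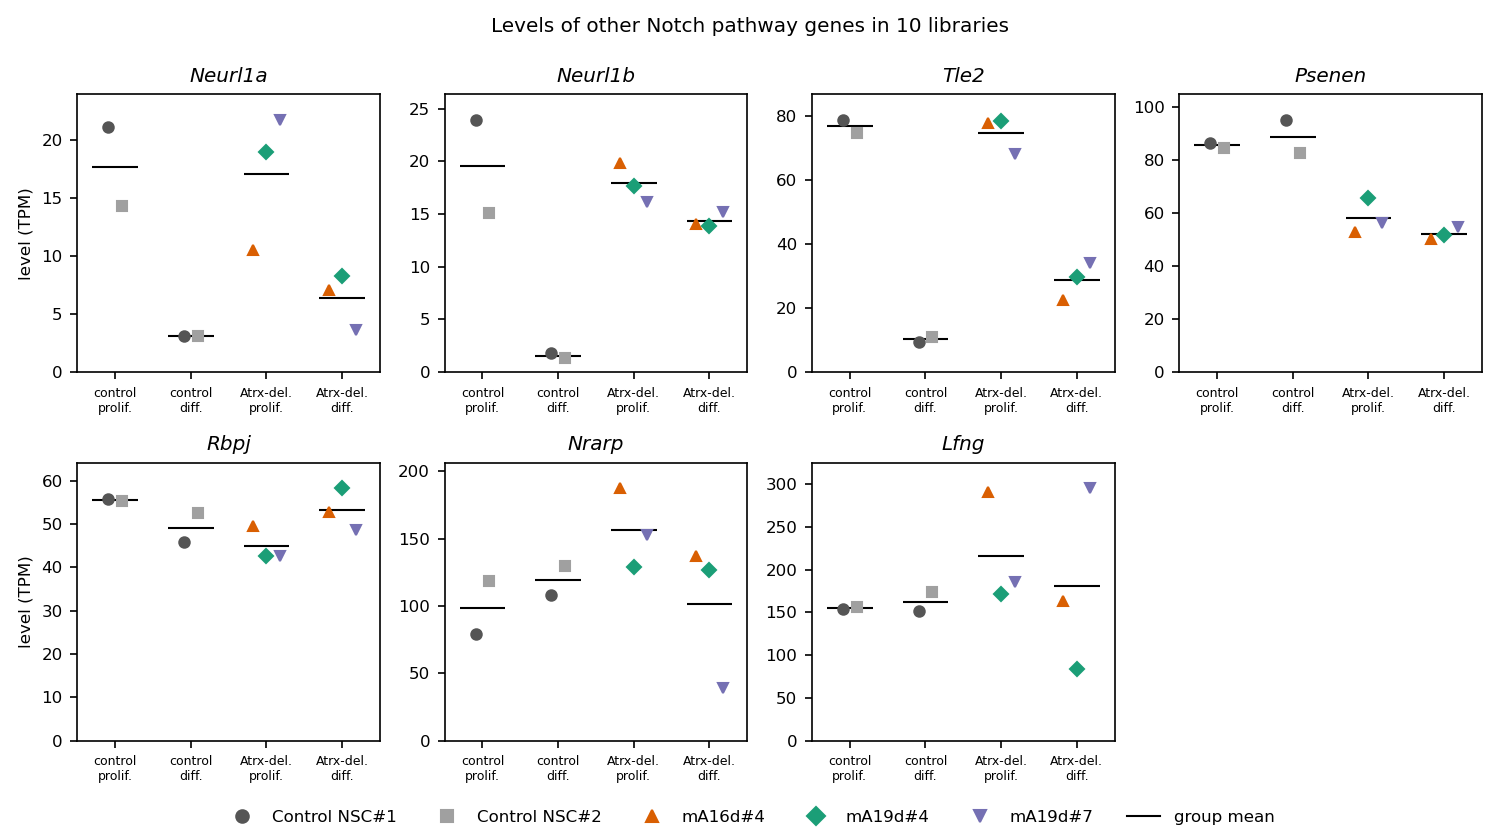
Levels in TPM (vertical axes, each from 0) of the further pathway genes described in the text, by group; each point is 1 library, symbols give the cell line and horizontal bars the group mean. Neurl1b lies between 1.32 and 1.78 TPM in the control differentiation libraries and between 13.9 and 24.0 TPM in the other 8.

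Rbpj, the DNA-binding effector of the pathway, was at 42.5 to 58.3 TPM in all 10 libraries. Nrarp, a target that feeds back on Notch, was at 79.3 to 188 TPM in 9 libraries and at 39.2 TPM in the mA19d#7 differentiation library. Lfng, a glycosyltransferase that modifies Notch receptors, was at 84.3 TPM in mA19d#4 and at 296 TPM in mA19d#7 in differentiation medium, which span its range. Neurog1, Neurog3, Neurod4 and Atoh1, proneural genes, did not reach 1 TPM in 2 libraries and were not tested. The other 4 of the 8 listed proneural genes were tested, and 0 passed in any comparison. Between genotypes, 2 of these 4 had an unadjusted p below 0.05 by limma in proliferation medium and 2 in differentiation medium. The shares of all tested genes were 13.7% and 20.2%.

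Some genes followed a member closely over the 10 libraries. Genes were ranked by Pearson's r on log2 (TPM + 1), from 12032 genes with a mean of at least 5 TPM, with clone-type symbols passed over. Those most like Hes1 were Ppp1r12c (r = 0.957), Acy3 (0.925) and Pddc1 (0.924). Those most like Hes5 were Zfp467 (0.957), Setd5 (0.932) and Trerf1 (0.931), and those most like Dll1 were Abtb2 (0.967), Zfp467 (0.950) and Bcl7a (0.930). Those most like Dll3 were Rdh13 (0.957), Astn1 (0.955) and Arhgap32 (0.955). Between members, Dll1 and Hes5 had r = 0.926. These are descriptions over libraries that share lines, media and 1 normalisation, and the mA19d#7 differentiation library holds the lowest value of Hes5, Dll1 and Dll3.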

How the data were processed

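The authors deposited 1 table of log2 values for 21101 genes in 10 libraries, made from total RNA with a TruSeq kit per the labels' protocols, with STAR and mm10 named in the submitters' processing notes. The sources used here do not give tool versions, the annotation or the quantifier. The values were read as log2 TPM because the back-transformed values sum to 997524 per library. All 10 libraries hold the same sorted values, with 1213 genes at the lowest value of -8, so depth is unknown, no counting error can be given and a shift of all genes would not show.

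After back-transformation, limma 3.58.1 in R 4.3.3 was run on log2(TPM + 1) with trended variance, 4 group means and 6 residual degrees of freedom, on the 15660 genes that reached 1 TPM in 2 or more libraries. Differences on this scale understate changes of low genes. P-values were Benjamini-Hochberg adjusted over all tested genes at 0.05. The fit was also run on simulated data with known changes, to check that mean estimates lay near them. The simulated libraries were independent, with no pairing by line and no outlying library, and error rates are not given here. Likeness was ranked over genes with a mean of at least 5 TPM, passing over clone-type symbols. All 10 members were named. Of the other pathway genes, those that passed, with Rbpj, Lfng and Nrarp, were named, and 1 gene that the rule names is not reported here. The members and lists were chosen with earlier results of these data known.

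Libraries were paired by cell line, but the main fit did not use this pairing. Its p-values between media therefore do not measure the spread of the changes within lines. Within a line, deviations from the group means correlated across genes with r = 0.159 (mA16d#4), 0.404 (mA19d#4), -0.194 (mA19d#7) and 0.0624 (controls, where 2 lines mirror each other). Alternatives were pseudocounts of 0.1, 0.5 and 5, the deposited log2 values, no filter or one of 5 TPM, no trend, robust estimation, median-of-ratios factors, a weight per group, the compared groups alone, a block for cell line (fixed or random), and each library and line left out. The block without mA19d#7 was added after seeing the data. Promoter windows are RefSeq's for GRCm38.p6.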

Additional observations from a re-analysis of the deposited data

Results flagged for a closer look

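Hey1 drew attention because its medium response had opposite directions in the genotypes: it was higher in differentiation medium in both control lines, at 132% and 130% of the proliferation level, and lower in all 3 Atrx-deleted lines, at 56.3%, 66.2% and 70.0%. The test of the difference itself gave a log2 value of -1.03 (SE 0.334, 95% interval -1.77 to -0.29) with an adjusted p of 0.533 from limma, so it did not pass. Over the alternative settings that adjusted p ranged from 0.121 to 1.00. The same pattern of directions was found in 4.36% of all tested genes. The cycling marker sum was lower and the astrocyte marker sum higher in differentiation medium in every line, while means of single astrocyte markers went both ways. Both sums lay apart between media in control lines and overlapped between media in Atrx-deleted lines, and their part in this result was not tested.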

How the results depend on the processing

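Of the members' 50 estimates, none passed as reported, and 5 gained a call under some setting, all for the medium: Notch1, Dll3, Jag1 and Hes5 in control lines and Hes5 in Atrx-deleted lines. Among the 10 members the calls between media in control lines went from 0 to 2 with a weight per group, 3 with the compared groups alone and 2 with the line as a replicate block and mA19d#7 left out, and lay between 0 and 1 with a library or line left out. In Atrx-deleted lines they went from 0 to 1 with the block and mA19d#7 left out.

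Over all genes, calls between genotypes in proliferation medium went from 72 to 39 on the deposited log2 values, 37 without a filter and 672 with a weight per group, and lay between 0 and 249 with a library or line left out. In differentiation medium they went from 452 to 2 with the groups alone, and lay between 1 and 935. Between media in control lines they went from 706 to 2984 with weights, 2080 with the groups alone and 1848 with the block and mA19d#7 left out, and lay between 0 and 1447. In Atrx-deleted lines they went from 13 to 7 with a pseudocount of 5, 2 without a filter, 0 without a trend or with the groups alone, 1 with weights, 6 with the line as a replicate block and 335 with the block and mA19d#7 left out, and lay between 0 and 348. For the difference of the responses they went from 1 to 0 with pseudocounts of 0.1 and 0.5, the deposited log2 values, a filter of 5 TPM or the replicate block, to 2 with a pseudocount of 5 or no trend, 30 without a filter, 6 with weights and 11 with the block and mA19d#7 left out, and lay between 0 and 3. The fixed block ended the calls on Tle2 in Atrx-deleted lines and Neurl1a in control lines given above and changed no other call between media on a named gene. It could not be applied to the calls between genotypes, since each line had only 1 genotype.

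Directions turned only for members with small or scattered estimates. With the block and mA19d#7 left out the log2 differences between media in Atrx-deleted lines turned to -0.057 for Notch2, 0.47 for Dll3 and -0.14 for Hes6, and with median-of-ratios factors that of Hes6 was -0.001. With a library or line left out, the differences between genotypes in proliferation medium ran from -0.21 to 0.20 for Notch1, -0.037 to 0.29 for Notch2, -0.051 to 0.56 for Dll3, -0.31 to 0.35 for Hes1 and -0.18 to 0.18 for Hes6. In differentiation medium they ran from -0.19 to 0.30 for Notch2, -0.41 to 0.17 for Dll1, -0.28 to 0.90 for Hes5 and -0.30 to 0.005 for Hes6. Between media in control lines they ran from -0.31 to 0.063 for Dll1 and -0.75 to 0.13 for Hes1. In Atrx-deleted lines they ran from -0.58 to 0.11 for Notch1, -0.057 to 0.76 for Notch2, -1.10 to 0.47 for Dll3 and -0.14 to 0.22 for Hes6. For the difference of the responses they ran from -0.48 to 0.34 for Notch2 and -0.37 to 0.001 for Hes6. Why these values moved was not tested beyond the settings named. Where a control library was left out, the remaining one was assumed to vary like the other groups, and with 2 control lines and unknown depth, intervals of the size given above limit every comparison.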
